A study of Danio rerio with 12 samples.

Results

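The sarcomere structural genes were 42 genes for the filaments, Z-discs and energy-supplying enzyme of striated muscle, listed by gene symbol. The list was made with earlier results of these data known. Of these, 25 symbols matched a row of the count tables, and *myl1* matched 2, so 26 of 32520 rows were members. All 26 rows passed the filter on low counts, which left 18688 genes to test. By fibre type, 11 rows belonged to fast-fibre genes, 4 to slow-fibre genes and 11 to neither list.

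The other 17 symbols (*mylpfa*, *mylpfb*, *mylz3*, *acta1a*, *acta1b*, *tnnt3a*, *tnnt3b*, *tnni2a.4*, *tnni2b.2*, *tnnc1b*, *ttn.1*, *ttn.2*, *myom1a*, *myom2a*, *xirp2a*, *desma* and *smyd1a*) were not matched under those names. The name table gives 24 rows of these families only under a symbol without the paralog suffix, so no row could be assigned to 1 paralog. They are described apart from the members, under their row identifiers.

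The RNA came from 12 pools of 20 whole embryos of the wild-type AB line at 1 day post fertilisation (dpf), each embryo kept alone in a tube, in darkness, for 24 h. TS embryos had fresh medium and 19 heat cycles that rose stepwise to 32°C and back to 27°C, and TS + SM embryos had the same cycles in medium taken from heat-stressed embryos, which holds stress metabolites. SM embryos had that medium at a constant 27°C, and C embryos had fresh medium at 27°C, with 3 pools per treatment. Only viable embryos, still in the chorion, were pooled. Whole pools were sequenced, so a lower or higher share of muscle cells and less or more RNA per cell cannot be told apart.

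A sarcomere slides thick filaments of myosin along thin filaments of actin between Z-discs. Troponin and tropomyosin let calcium switch the thin filament on, titin and nebulin set the order and length of the filaments, and α-actinin ties thin filaments together at the Z-disc. In zebrafish, slow fibres arise from cells beside the notochord and then move to the surface of the myotome, while fast fibres fill its depth, and each type uses its own myosin, troponin and myosin-binding protein paralogs. At 1 dpf the trunk already holds both fibre types while the last somites form at the tail.

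The libraries held between 18764434 and 60239167 counts, and the 26 rows took 0.576% to 2.02% of them. TS replicate 3 stood at the top of that range. Fast-fibre, slow-fibre and cardiac markers were counted in every library. Levels are normalized counts (counts scaled to a common effective library size) and serve to compare libraries for 1 gene, since read counts also grow with the length of a gene. *P*-adj is the Benjamini-Hochberg adjusted value of edgeR's quasi-likelihood test over all 18688 genes, called at 0.05 or less, and LFC is the log2 fold-change. Where the 3 libraries of a treatment all lay above the 3 of another, the share of all genes doing so was not counted. Such separations are description only.

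The first question was whether heat moved these genes, and it was put to both media together by averaging TS vs. C and TS + SM vs. SM. The 11 fast-fibre rows had a median LFC of 0.71, and 10 of them were higher in the heated libraries (TS and TS + SM) than at 27°C. The 4 slow-fibre rows had a median of -0.03, with 2 higher and 2 lower, and the 11 rows in neither list a median of 0.60. The 2 higher slow-fibre rows were the well-counted *smyhc1* and *smyhc2* (LFC 0.21 and 0.32). The 2 lower were *tnnt1* and *mybpc1* (-0.38 and -0.27), with at most 132 and 45.2 normalized counts. The slow-fibre list is thus small, and its member *tnnc1b* was not matched. Its median rests on 4 rows, 2 of them low in counts, and covers no slow-fibre gene outside the list. Over all genes tested the median was -0.0027. Only *myhz2*, a fast myosin heavy chain, passed *P*-adj, so 1 of 26 rows was called where 0.851% of all genes were. At an unadjusted *P* of 0.05 or less, 15 of 26 rows were higher, against 5.67% of all genes, and 1 was lower, against 3.69%. These 15 were 9 fast-fibre rows and 6 rows in neither list, and no slow-fibre row was among them. The 1 lower row was *myhb*, also a fast-fibre row. The difference between the fast and the slow list was not tested. DESeq2, the tool used in the study, called 9 of the 26 rows (*myhz1.1*, *myhz2*, 1 row of *myl1*, *tmod4*, *mybpc2b*, *actn3a*, *ldb3b*, *ckma* and *ckmb*), all with a positive LFC, where it called 2.43% of the genes given an adjusted *P*. Without the 4 libraries numbered 3 the fast-fibre median was 0.46, and edgeR called 3 rows, with *myhz2* and *mybpc2b* higher and *tnnt2c* lower, and 2% of all genes tested.

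**Figure D1:**
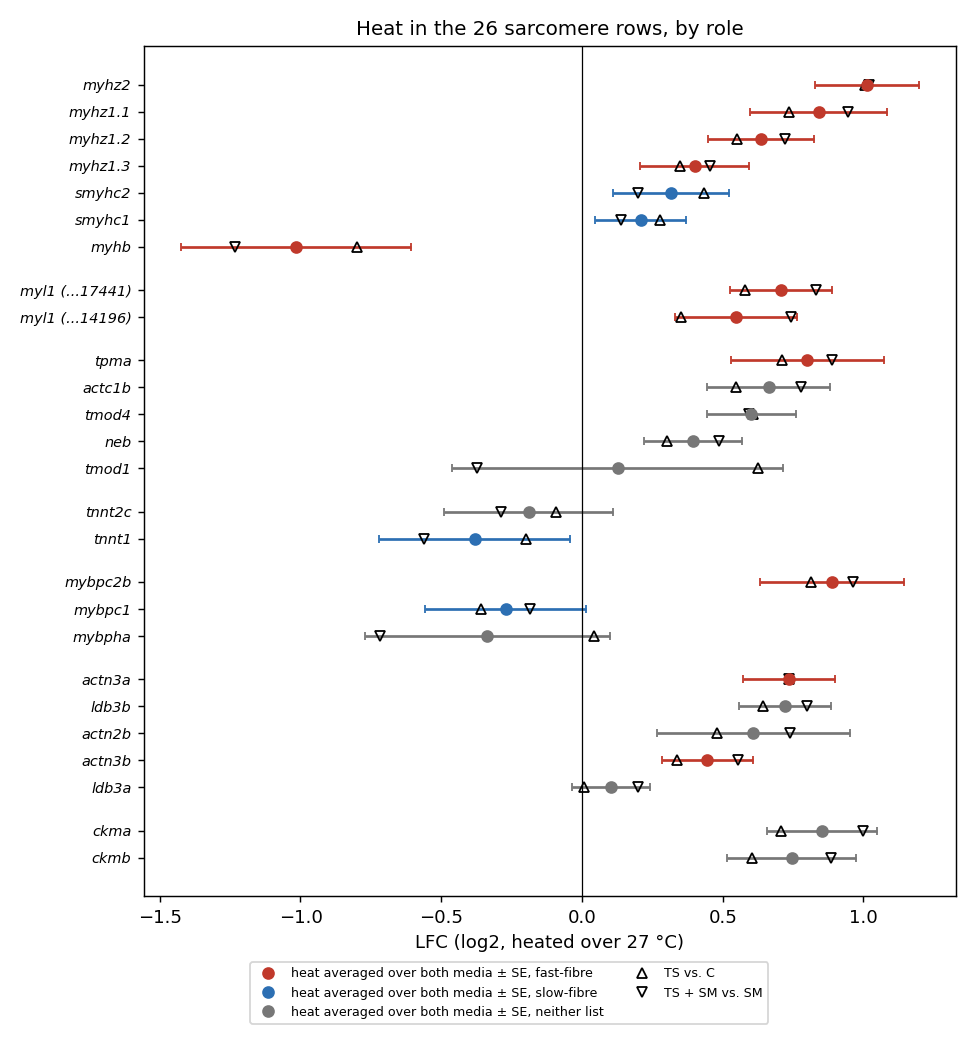
LFC of heat (horizontal axis, log2, heated over 27°C) for each of the 26 rows, grouped by role from myosin heavy chains at the top to creatine kinases at the bottom. Filled points with bars are the mean over both media ± SE, upward triangles TS vs. C and downward triangles TS + SM vs. SM. Of the 26 rows, 21 lie to the right of 0, with *myhz2* farthest right at 1.01 and *myhb* farthest left at -1.02.

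Myosin heavy chains are the motor proteins of the thick filament. *myhz2* had 11082, 9140.0 and 10430.0 normalized counts in TS and 11736, 8474 and 12799 in TS + SM, against 5923, 3738 and 6622 in SM and 6198, 5529 and 3554 in C. All 6 heated libraries lay above all 6 at 27°C. *myhz2* rose with heat (LFC = 1.01 ± 0.18 SE, *P*-adj = 0.0256), which is 2.02-fold. The estimates in the 2 media were close, with an LFC of 1.00 for TS vs. C and 1.02 for TS + SM vs. SM, though neither passed *P*-adj on its own. Leaving out 1 of 12 libraries kept the LFC between 0.91 and 1.11, but 8 of the 12 omissions ended the call. *P*-adj was then 0.0802 without TS replicate 1, 0.0529 without TS replicate 2, 0.0582 without TS + SM replicate 1, 0.0529 without TS + SM replicate 3, 0.0731 without SM replicate 1, 0.0537 without SM replicate 2, 0.0844 without C replicate 2 and 0.0515 without C replicate 3.

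The other fast heavy chains *myhz1.1*, *myhz1.2* and *myhz1.3* are direct neighbours in the RefSeq gene order of chromosome 5. They are close copies, and reads that mapped to several places were not counted, so their separate levels are uncertain. *myhz2* lies beside *myhc4* on the same chromosome in RefSeq. Whether such uncounted reads affect the level of *myhz2* was not tested. *myhz1.1* had 24779, 21939 and 27709 normalized counts in TS and 26950.0, 18671 and 43123 in TS + SM, against 9276, 14927 and 21868 in SM and 18695, 13333 and 12666 in C. Its TS libraries all lay above its C libraries, and TS + SM replicate 2 lay below SM replicate 3 (LFC = 0.84 ± 0.24 SE, *P*-adj = 0.184). For *myhz1.2* the counts were 3323 to 7472 normalized counts in the heated libraries, against 2488 to 3981 at 27°C, and for *myhz1.3* 18341 to 37884 normalized counts in the heated libraries, against 14745 to 26630.0 at 27°C. Both overlapped, with LFCs of 0.64 and 0.40 that did not pass *P*-adj (0.207 and 0.573).

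*myhb*, on chromosome 6 in RefSeq, was the only fast-fibre row with a negative LFC. It had 22.7, 25.7 and 9.62 normalized counts in TS and 17.9, 32.3 and 29.1 in TS + SM, against 31.0, 40.5 and 112 in SM and 34.5, 48.6 and 16.8 in C. These are low counts, and SM replicate 3 held by far the most. The LFC was the lowest of the 26 rows and did not pass the test (LFC = -1.02 ± 0.41 SE, *P*-adj = 0.434).

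The slow myosin heavy chains *smyhc1* and *smyhc2*, also neighbours in RefSeq, are the motors of the superficial slow fibres of the embryo. *smyhc1* had 14650.3, 14167 and 19889.8 normalized counts in TS and 18986, 12852 and 10965 in TS + SM, against 12969.8, 13528 and 12395 in SM and 15704, 13037 and 11446 in C. The heated and unheated libraries overlapped almost fully (LFC = 0.21 ± 0.16 SE, *P*-adj = 0.858). *smyhc2* had 1397, 1265 and 2007 normalized counts in TS and 1884, 993 and 782 in TS + SM, against 1187, 1121 and 889.9 in SM and 1185, 998 and 1277 in C, which also overlapped (LFC = 0.32 ± 0.21 SE, *P*-adj = 0.768). In both genes TS replicate 3 and TS + SM replicate 1 were the highest libraries and TS + SM replicate 3 the lowest.

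**Figure D2:**
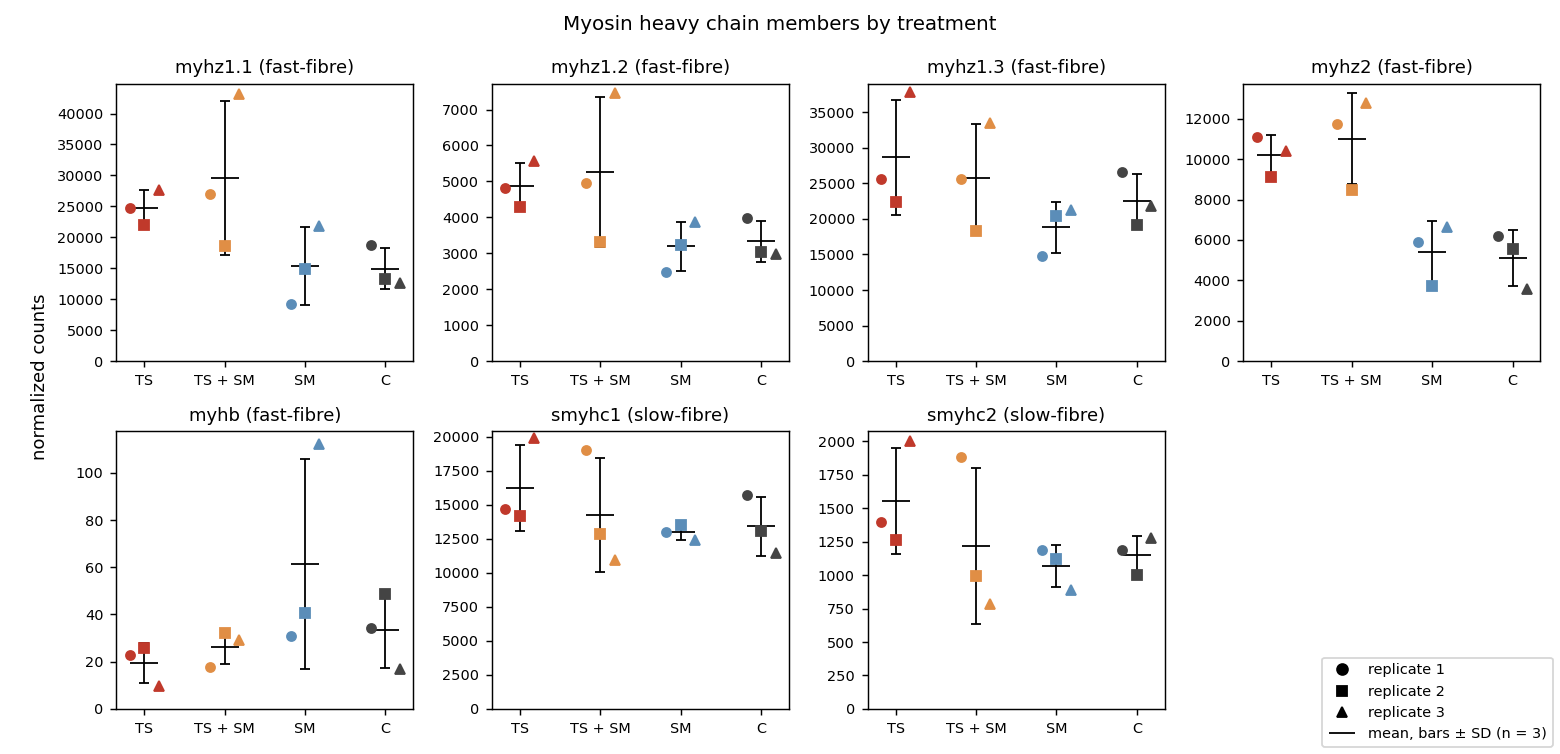
Normalized counts (vertical axis, linear, from 0) of the 7 myosin heavy chain members in TS, TS + SM, SM and C. Points are pools, marked by replicate number, and lines with bars the mean ± SD of 3 pools. The 6 heated pools of *myhz2* lie at 8474 or more and the 6 pools at 27°C at 6622 or less, while the heated and unheated pools of *smyhc1* and *smyhc2* overlap.

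Within a library, the summed counts of the 5 fast heavy chains can be set over those of the 2 slow ones. This ratio was 4.13, 3.75 and 3.73 in TS and 3.32, 3.53 and 8.25 in TS + SM, against 2.29, 2.89 and 4.05 in SM and 3.29, 2.93 and 3.22 in C. All TS libraries lay above all C libraries. TS + SM and SM overlapped, since SM replicate 3 exceeded TS + SM replicates 1 and 2. The ratio averaged 3.87 ± 0.23 in TS and 3.15 ± 0.191 in C (SD, n = 3 each). In TS + SM it averaged 5.03 ± 2.79, against 3.08 ± 0.892 in SM (SD, n = 3 each), and the wide spread in TS + SM came with replicate 3. No test was run on it, as its genes were chosen with earlier results known.

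**Figure D3:**
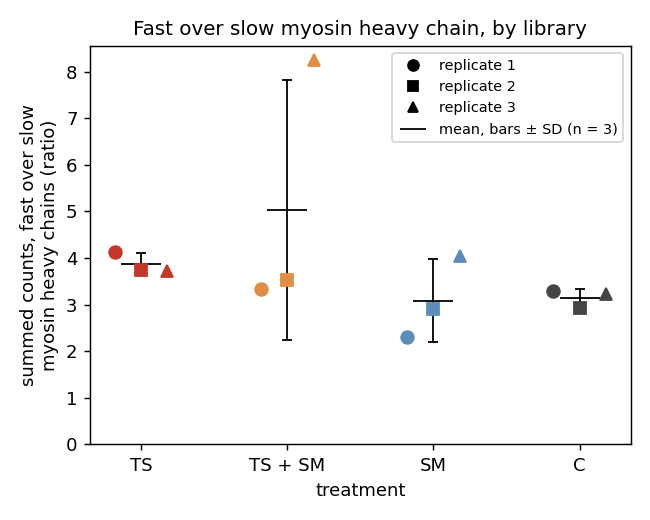
Summed counts of 5 fast myosin heavy chains over those of 2 slow ones (vertical axis, ratio, from 0) in each library of TS, TS + SM, SM and C. Points are pools and lines with bars the mean ± SD of 3 pools. TS lies between 3.73 and 4.13 and C between 2.93 and 3.29, while TS + SM replicate 3 stands apart at 8.25.

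The share of each gene in the fast heavy chain counts was compared within libraries, with no test. *myhz2* gave 16.7%, 15.8% and 12.8% of them in TS and 16.9%, 17.3% and 13.2% in TS + SM. At 27°C it gave 18.2%, 8.82% and 12.3% in SM and 11.2%, 13.4% and 8.67% in C. *myhz1.3* gave 38.7%, 38.8% and 46.4% in TS and 37.0%, 37.6% and 34.5% in TS + SM, against 45.4%, 48.3% and 39.6% in SM and 47.9%, 46.6% and 53.1% in C. The *myhz1.3* share was lower in every TS library than in every C library, and lower in every TS + SM library than in every SM library. Since reads mapped to several places were not counted, the split among the fast heavy chains, *myhz2* included, is uncertain. Whether mapping had a part in these shares was not tested, and no other genes were set beside them.

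Myosin light chains wrap the lever arm of the heavy chain, and *myl1* encodes a fast essential light chain. The name table gives the symbol *myl1* to 2 rows. Whether 1 of them belongs to a paralog, such as the unmatched *mylz3*, could not be told. The row ENSDARG00000017441 of *myl1* had 29902, 26422 and 25618 normalized counts in TS and 27225, 19407 and 37241 in TS + SM, against 13192, 16934 and 17012 in SM and 23406, 16969 and 14416 in C. TS lay above C in every library and TS + SM above SM, for which no share of all genes was counted. TS + SM replicate 2 lay below C replicate 1 (LFC = 0.71 ± 0.18 SE, *P*-adj = 0.116). The row ENSDARG00000014196 had 18157, 13781 and 25987 normalized counts in TS and 21191, 11683 and 20074 in TS + SM, against 11061, 13284 and 7322 in SM and 17667, 12531 and 15185 in C and overlapped more (LFC = 0.55 ± 0.22 SE, *P*-adj = 0.412). The 2 rows did not keep a fixed ratio across libraries. The first over the second was 1.65, 1.92 and 0.986 in TS, 1.28, 1.66 and 1.86 in TS + SM, 1.19, 1.27 and 2.32 in SM and 1.32, 1.35 and 0.949 in C, with TS replicate 3 and C replicate 3 the only libraries below 1.

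In the thin filament, *tpma* encodes the tropomyosin that covers the myosin-binding face of actin, and *actc1b* an α-actin of striated muscle. *tpma* had 20412, 15766 and 46535 normalized counts in TS and 19090.1, 13601 and 25453 in TS + SM, against 9929, 13332 and 8125 in SM and 17925, 12791 and 19799 in C. TS replicate 3 held more than any other library by a wide margin (LFC = 0.80 ± 0.27 SE, *P*-adj = 0.298), and without it the LFC was 0.52. *actc1b* had 62556, 54994 and 115252 normalized counts in TS and 71969, 44748 and 74537 in TS + SM, against 41283, 39279.6 and 30848 in SM and 53489.9, 43069.9 and 62777 in C, with the same library highest (LFC = 0.66 ± 0.22 SE, *P*-adj = 0.273). Its LFC without TS replicate 3 was 0.48.

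*tmod4* and *tmod1* encode tropomodulins, which cap the pointed end of the thin filament. *tmod4* had 1521, 1318 and 2319 normalized counts in TS and 1372, 1153 and 1357 in TS + SM, against 809, 999.8 and 763 in SM and 1199.8, 862 and 1325 in C. Only TS + SM replicate 2 and TS replicate 2 among the heated libraries fell below the highest C library (LFC = 0.60 ± 0.16 SE, *P*-adj = 0.126). *tmod1*, counted at a far lower depth, had 7.58, 9.48 and 76.3 normalized counts in TS and 7.78, 6.45 and 18.2 in TS + SM, against 12.4, 21.4 and 7.72 in SM and 13.2, 20.4 and 28.0 in C. A single library, TS replicate 3, set its LFC of 0.13, which was -0.80 without that library (*P*-adj = 0.992 with it and 0.584 without). Nebulin (*neb*), which runs along the thin filament, had 7047 to 10649 normalized counts in the heated libraries, against 4401 to 8384 at 27°C (LFC = 0.39 ± 0.17 SE, *P*-adj = 0.505).

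Of the troponin members, 2 were matched, and both encode troponin T, the subunit that binds tropomyosin. *tnnt2c* had 3627, 2932 and 10475 normalized counts in TS and 3435, 3169.9 and 2611 in TS + SM, against 4329, 4598 and 2313 in SM and 5693, 4737 and 7743 in C. Apart from TS replicate 3, every heated library lay below every C library. The LFC over all libraries was -0.19 (*P*-adj = 0.980), and without the 4 libraries numbered 3 it was -0.54 and called (*P*-adj = 0.0403). *tnnt1*, the slow skeletal form, had 39.8, 50.1 and 22.7 normalized counts in TS and 44.9, 46.4 and 63.0 in TS + SM, against 59.0, 35.7 and 132 in SM and 51.7, 49.6 and 27.0 in C, with SM replicate 3 highest (LFC = -0.38 ± 0.34 SE, *P*-adj = 0.899).

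Among the proteins that bind myosin along the thick filament, the fitted LFCs of the fast and slow paralogs had opposite signs. *mybpc2b*, the fast form of myosin-binding protein C, had 3941, 3192 and 3188 normalized counts in TS and 3765, 2895 and 6746 in TS + SM, against 1392, 2195 and 3292 in SM and 2383, 2239 and 1250.5 in C. All TS libraries lay above all C libraries, and SM replicate 3 lay above TS + SM replicate 2 (LFC = 0.89 ± 0.26 SE, *P*-adj = 0.186). *mybpc1*, the slow form, had 17.1, 25.7 and 21.3 normalized counts in TS and 19.1, 42.6 and 30.3 in TS + SM, against 29.5, 28.6 and 45.2 in SM and 27.4, 36.0 and 18.7 in C, where low counts overlapped throughout (LFC = -0.27 ± 0.29 SE, *P*-adj = 0.941). *mybpha*, a myosin-binding protein H, had 6.45 to 33.7 normalized counts in the heated libraries, against 7.76 to 37.5 at 27°C (LFC = -0.34 ± 0.44 SE, *P*-adj = 0.961). The difference between the paralogs was not tested.

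At the Z-disc, *actn3a* and *actn3b* encode fast-fibre α-actinins. *actn3a* had 7089, 6678 and 7473 normalized counts in TS and 9125, 6019.8 and 7307 in TS + SM, against 3769, 4294 and 5428 in SM and 5633, 4046 and 3078 in C. As for *myhz2*, all 6 heated libraries lay above all 6 at 27°C, which held for 2 of 26 members and 1.47% of all genes. Its LFC was 0.74 in TS vs. C and 0.73 in TS + SM vs. SM, and the average missed the threshold (LFC = 0.74 ± 0.16 SE, *P*-adj = 0.0713). It was called when C replicate 1, its highest library at 27°C, was left out (*P*-adj = 0.0352). *actn3b* had 4669 to 5796 normalized counts in the heated libraries, against 2359.8 to 5096 at 27°C (LFC = 0.44 ± 0.16 SE, *P*-adj = 0.349). *actn2b*, an α-actinin of low count, had 60.4 to 219 normalized counts in the heated libraries, against 48.1 to 115 at 27°C (LFC = 0.61 ± 0.34 SE, *P*-adj = 0.691), and its LFC was 0.19 without TS + SM replicate 3.

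*ldb3a* and *ldb3b* encode Z-disc adaptors that bind α-actinin. *ldb3b* had 2827, 2436 and 3785 normalized counts in TS and 2536, 2006 and 3199 in TS + SM, against 1263, 1822 and 1364 in SM and 2344, 1839.7 and 1612 in C, and only TS + SM replicate 2 among the heated libraries lay below the highest library at 27°C, C replicate 1 (LFC = 0.72 ± 0.16 SE, *P*-adj = 0.0747). *ldb3a* had 1892, 1621 and 2128 normalized counts in TS and 1609, 1428 and 2264 in TS + SM, against 1509, 1826 and 1284 in SM and 2058, 1878 and 1674 in C and did not separate (LFC = 0.10 ± 0.14 SE, *P*-adj = 0.965). Of these paralogs, the fitted change was near 1.65-fold in one and 1.07-fold in the other, and the difference was not tested.

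Muscle creatine kinases, which refill the ATP used by myosin, were encoded by *ckma* and *ckmb*. *ckma* had 21768, 18448 and 36164 normalized counts in TS and 26947, 17108 and 26283 in TS + SM, against 11765, 13764 and 9707 in SM and 17266, 13219 and 16317 in C. Every heated library except TS + SM replicate 2 lay above every library at 27°C (LFC = 0.85 ± 0.19 SE, *P*-adj = 0.0762). *ckmb* had 25951, 21518 and 45267 normalized counts in TS and 26859, 16555 and 35578 in TS + SM, against 12198, 16304 and 14297 in SM and 23010.4, 16259 and 21724 in C (LFC = 0.74 ± 0.23 SE, *P*-adj = 0.22), with TS replicate 3 highest in both genes.

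**Figure D4:**
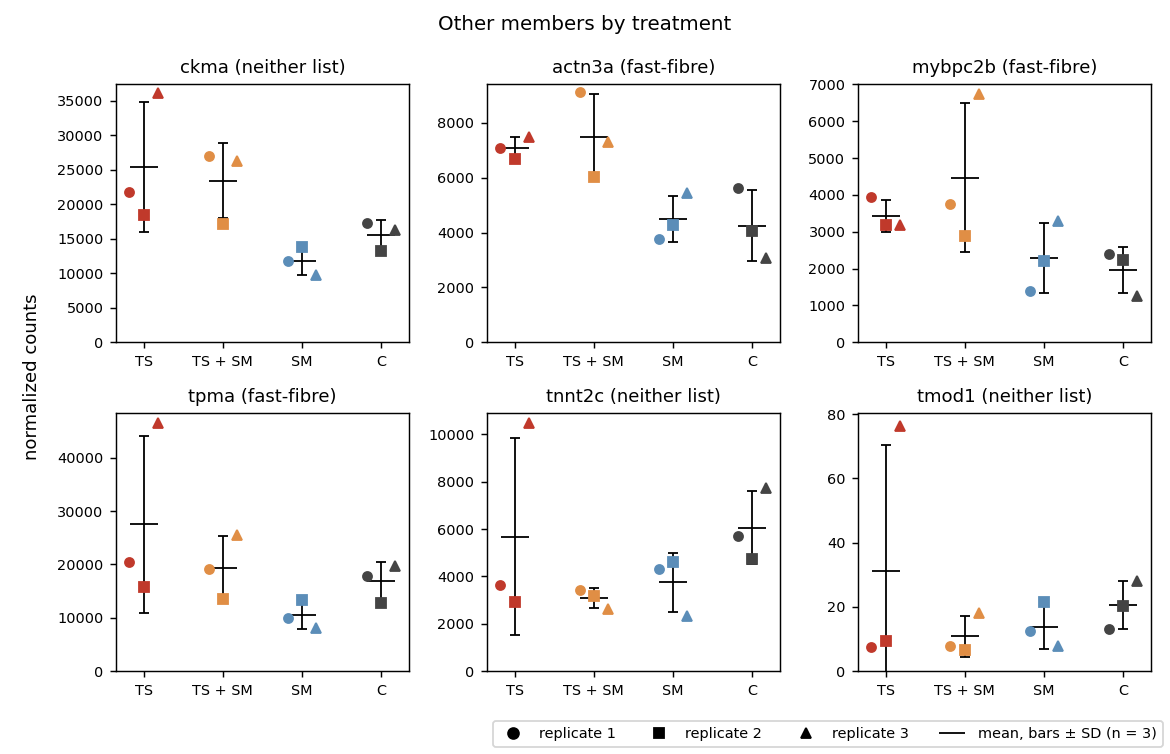
Normalized counts (vertical axis, linear, from 0) of 6 members of other roles in TS, TS + SM, SM and C. Points are pools, marked by replicate number, and lines with bars the mean ± SD of 3 pools, with bars ending at 0. In *actn3a* the heated pools, at 6020 or more, lie above the pools at 27°C, while TS replicate 3 stands apart in *tpma*, *tnnt2c* and *tmod1*.

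Each medium was then taken alone. In TS vs. C, 0 of 26 rows were called (0.0963% of all genes were), and at an unadjusted *P* of 0.05 or less 7 rows were higher and 0 lower, against 3.08% and 1.37% of all genes. This count of 7 was 3 without C replicate 2 and 4 without TS replicate 3 or C replicate 3. In TS + SM vs. SM, 0 of 26 rows were called (0.107% of all genes), and at the unadjusted threshold 14 rows were higher and 0 lower, against 3.71% and 2.3%. The count of 14 was 7 without TS + SM replicate 3 or SM replicate 1 and 9 without TS + SM replicate 1. For the fits with 1 library left out, the shares of all genes at this threshold were not counted. DESeq2 called *myhz2* in TS vs. C (0.577% of all genes with an adjusted *P*), and *myhz2* and *ckma* in TS + SM vs. SM (0.796%). The fast-fibre median LFC was 0.58 in TS vs. C and 0.74 in TS + SM vs. SM. The slow-fibre median was 0.04 in TS vs. C and -0.02 in TS + SM vs. SM. These contrasts have no library in common, but they share 1 model and its estimate of the spread. In each, 10 of 11 fast-fibre rows were higher, against 50.8% of all genes in TS vs. C and 49.6% in TS + SM vs. SM. The rows are not replicates of a treatment and were chosen with earlier results known, so these counts are description only. Leaving out C replicate 3 made the slow-fibre median of TS vs. C -0.14.

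**Figure D5:**
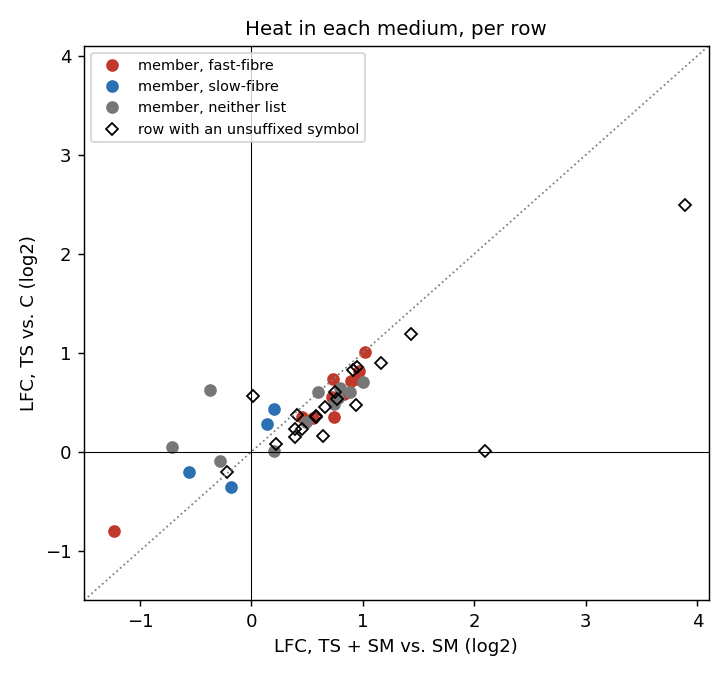
LFC of TS vs. C (vertical axis, log2) against LFC of TS + SM vs. SM (horizontal axis, log2) for the 26 member rows (filled, by fibre list) and 20 rows known only by an unsuffixed symbol (open diamonds), with the line of equal change dotted. Most fast-fibre members lie between 0.35 and 1.02 on both axes, and a row of *XIRP2* stands apart at 3.89 on the horizontal axis. Slow-fibre members lie on both sides of 0, from -0.36 to 0.43 on the vertical axis and from -0.56 to 0.20 on the horizontal axis.

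Adding stress metabolites was the second question. No pool kept in medium from unheated embryos was sequenced, which the study names as a limitation. Stress metabolites and other effects of used medium therefore cannot be told apart here. In SM vs. C, 0 of 26 rows were called, as were 0% of all genes, and 0 rows passed the unadjusted threshold, against 2.12% of all genes. At that threshold 4 rows passed when only the SM and C libraries were fitted, 3 without TS replicate 3, 2 without SM replicate 2 and 1 without C replicate 2. The shares of all genes passing in those fits were not counted, so these row counts have no background to be set against. The median LFC was -0.24, with 18 of 26 rows lower and a range from -0.69 for *tpma* and *tnnt2c* to 0.89 for *myhb*. Over all genes tested the median was -0.013, and 48.2% were higher. By list, the median was -0.06 in the fast-fibre rows (5 higher and 6 lower) and 0.14 in the slow-fibre rows (2 higher and 2 lower). In the rows of neither list it was -0.41, with 10 of 11 lower. *tpma* averaged 10462 ± 2644 normalized counts in SM and 16838 ± 3628 in C, and *tnnt2c* averaged 3747 ± 1249 in SM and 6058 ± 1536 in C (SD, n = 3 each). DESeq2 also called 0 of the 26 rows in SM vs. C (0.00362% of all genes).

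Under heat, TS + SM vs. TS called 0 of 26 rows, as it did 0% of all genes. None passed the unadjusted threshold, against 1.45% of all genes, and DESeq2 called 0 (0% of all genes). The median LFC was -0.12, against -0.0067 over all genes tested. The unadjusted threshold was passed by 2 rows without TS replicate 1, 3 without TS replicate 2 and 1 without TS + SM replicate 1 or 3. TS + SM vs. C, which shares its C libraries with TS vs. C and SM vs. C, called 0 of 26 rows (0.171% of all genes) and put 7 rows past the unadjusted threshold (6.24% of all genes), 6 higher and 1 lower, while DESeq2 called *myhz2* (0.924% of all genes). Those 7 rows became 3 without TS + SM replicate 3 and 4 without C replicate 3. Shares of all genes at the unadjusted threshold were not counted for the fits with 1 library left out. The interaction of heat and SM was called in 0 rows (0% of all genes) and passed the unadjusted threshold in 0 (0.915%; 1 row without TS + SM replicate 1), and DESeq2 called 0 (0.00724%). For *myhz2* the interaction was 0.02 ± 0.36 SE on the log2 scale, and for *ckma* 0.29 ± 0.39 SE.

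The 24 rows known only by an unsuffixed symbol were listed after the names had been seen. Of these, 20 passed the filter, 19 of the 20 had a positive LFC with heat, where 49.5% of all genes did, and 3 were called, against 0.851% of all genes. *MYL11*, the fast regulatory light chain, has 2 rows. ENSDARG00000002589 had 5721, 4396 and 7791 normalized counts in TS and 6412, 3838 and 6345 in TS + SM, against 2122, 3089.8 and 2213 in SM and 3880.0, 2538 and 3203 in C. This row rose (LFC = 1.03 ± 0.19 SE, *P*-adj = 0.0283), and only TS + SM replicate 2 lay below the highest C library. The call was lost without TS replicate 1 (*P*-adj = 0.0697), TS + SM replicate 1 (0.0659), SM replicate 1 (0.0935) or 3 (0.0799), or C replicate 2 (0.103) or 3 (0.0579). The row with more counts, ENSDARG00000053254, had 59853 to 93939 normalized counts in the heated libraries, against 38906 to 72314 at 27°C (LFC = 0.70 ± 0.18 SE, *P*-adj = 0.109).

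*XIRP2* encodes a Xin-repeat protein that binds actin where thin filaments are anchored. Its row ENSDARG00000091090 had 32.2, 28.4 and 88.0 normalized counts in TS and 32.9, 38.7 and 114 in TS + SM, against 0, 7.14 and 4.41 in SM and 12.2, 2.92 and 11.2 in C. All heated libraries lay above all libraries at 27°C, and it rose 9.14-fold from low counts (LFC = 3.19 ± 0.59 SE, *P*-adj = 0.0283). The row passed the filter on low counts only through the heated libraries, where it is high. Its call, 1 of the 3, is therefore given as description only. Its *P*-adj was 0.0512 without TS + SM replicate 2, 0.0608, 0.0516 and 0.0836 without SM replicates 1, 2 and 3, and 0.0558, 0.0919 and 0.0529 without C replicates 1, 2 and 3. A second *XIRP2* row, ENSDARG00000071113, had 641 to 1141 normalized counts in the heated libraries, against 462 to 862 at 27°C (LFC = 0.31 ± 0.19 SE, *P*-adj = 0.737).

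*SMYD1*, a methyltransferase that assists myosin assembly in muscle, also had 2 rows, with fitted LFCs of opposite sign. ENSDARG00000009280 had 1400.3, 1181 and 1451 normalized counts in TS and 1527, 1179 and 1864 in TS + SM, against 827, 826 and 1071 in SM and 1031, 912 and 707 in C, with no overlap between heated and unheated libraries, and rose (LFC = 0.68 ± 0.14 SE, *P*-adj = 0.0498). All 6 heated libraries lay above all 6 at 27°C in 2 of the 20 tested rows with an unsuffixed symbol, against 1.47% of all genes. These were this row and the *XIRP2* row ENSDARG00000091090, and the count is description only. ENSDARG00000091253 had 2851, 2609.7 and 4207 normalized counts in TS and 3326, 2398 and 2481 in TS + SM, against 3495, 3445 and 2634 in SM and 4172, 3404 and 3571 in C (LFC = -0.21 ± 0.15 SE, *P*-adj = 0.806). The call of the first was kept only without TS + SM replicate 2 among the 12 omissions, and *P*-adj in the others lay between 0.0551 (without SM replicate 3) and 0.151 (without SM replicate 1). It was also lost with the size factors of DESeq2 (0.0501) and on the unstranded counts (0.0987). The difference between the rows was not tested.

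The fast troponin rows had positive LFCs that did not pass *P*-adj. *TNNT3* (fast troponin T) row ENSDARG00000030270 had 7421 to 16818 normalized counts in the heated libraries, against 3977 to 7686 at 27°C (LFC = 0.87 ± 0.20 SE, *P*-adj = 0.0764), and the LFC of its other row, ENSDARG00000068457, was 0.90. *TNNI2* (fast troponin I) row ENSDARG00000029069 had 2966 to 12998 normalized counts in the heated libraries, against 1643 to 4113 at 27°C (LFC = 1.31 ± 0.35 SE, *P*-adj = 0.127). The 2 further *TNNI2* rows tested, ENSDARG00000013752 and ENSDARG00000035958, had LFCs of 1.05 and 0.34. For titin, the giant spring between Z-disc and M-band, the *TTN* rows ENSDARG00000000563 and ENSDARG00000028213 had LFCs of 0.27 and 0.40 (*P*-adj = 0.875 and 0.770).

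*ACTA1* rows (skeletal α-actin) had LFCs of 0.15 for ENSDARG00000036371 and 0.39 for ENSDARG00000055618, and *DES* (desmin) row ENSDARG00000058656 had 0.46. For M-band proteins, *MYOM2* had an LFC of 0.65 and *MYOM1* row ENSDARG00000061249 of 0.56. *TNNC1*, a troponin C of slow and cardiac muscle, had 0.47. None of these passed *P*-adj.

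TS replicate 3 stood apart from the other TS libraries in several rows at once. It held the highest value of all 12 libraries for *tpma*, *actc1b*, *tmod1*, *tmod4*, *tnnt2c*, *ldb3b*, *ckma* and *ckmb*. The same held for the myosin genes *myhz1.3*, *smyhc1* and *smyhc2* and the *myl1* row ENSDARG00000014196. Among rows with an unsuffixed symbol, the *TNNI2* row ENSDARG00000029069 is an example. In the same library the *TTN* rows were the lowest of the heated group, with 9037 and 6730.3 normalized counts, and the lowest of all 12 libraries was C replicate 3, with 7095 for ENSDARG00000000563 and 5309 for ENSDARG00000028213. Leaving out TS replicate 3 left 1 member called, *myhz2*, where 172 of 18899 genes tested were called, and a fast-fibre median of 0.60. C replicate 3 was likewise the highest C library for *tpma*, *actc1b*, *tmod1*, *tmod4*, *tnnt2c* and *smyhc2*. It was not for *ldb3b*, *ckma*, *ckmb*, *myhz1.3*, *smyhc1* or that *myl1* row. Across genes, the deviations of TS replicate 3 and C replicate 3 from their treatment means correlated (r = 0.786). Omitting TS replicate 3 alone does not address this.

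A list of 43 further sarcomere genes matched 28 rows, of which 26 were tested, with a median LFC of 0.52 for heat averaged over both media. Of these, 22 were higher and 2 were called, against 49.5% and 0.851% of all genes. *tcap* (telethonin, which caps titin at the Z-disc) had 161, 107 and 83.1 normalized counts in TS and 90.3, 69.7 and 112 in TS + SM, against 27.9, 22.6 and 19.8 in SM and 18.2, 24.3 and 26.1 in C (LFC = 2.15 ± 0.23 SE, *P*-adj = 0.00122). *nrap*, a scaffold of growing myofibrils, had 500.3, 516 and 601 normalized counts in TS and 443, 382 and 664 in TS + SM, against 244, 326 and 318 in SM and 349, 279 and 228 in C (LFC = 0.83 ± 0.16 SE, *P*-adj = 0.034). The call of *nrap* was lost in 9 of 12 omissions, all but those of TS + SM replicates 2 and 3 and C replicate 1, with a *P*-adj of up to 0.113 without C replicate 2. In this list *tcap*, *nrap* and *tnni1d* had all 6 heated libraries above all 6 at 27°C, as had 1.47% of all genes. *tnni1d*, a troponin I gene in neither fibre list, had 123 to 188 normalized counts in the heated libraries, against 42.8 to 108 at 27°C. Its paralog *tnni1c* overlapped, with 662 to 1231 in the heated libraries and 537 to 841 at 27°C. Neither row enters the fast-fibre or the slow-fibre median. The myosin chaperones *unc45b* and *hsp90aa1.1* had LFCs of -0.12 and -0.11 and were not called. In cardiac muscle genes, 4 of 6 rows were higher and 0 were called (median LFC 0.19).

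Genes of younger paraxial mesoderm and of myogenesis were set beside these results. Of 10 genes of presomitic mesoderm and segmentation, which mark somites still to form, all 10 were lower with heat (median LFC -2.19) and 7 were called, where 0.15% of all genes were called lower. Their summed level was 326 to 620.3 normalized counts in the heated libraries, against 939 to 2456 at 27°C, with no overlap, and each of the 10 was counted at 27°C in every library. Of these genes, *her7*, *ripply2*, *mespaa*, *mespab* and *mespba* passed the filter on low counts only through the libraries at 27°C, where they are high. Any call among them, and with it the count of 7, is therefore given as description only. The segmentation clock gene *her1* had 13.3, 16.3 and 13.1 normalized counts in TS and 20.3, 25.8 and 29.1 in TS + SM, against 109, 82.1 and 77.2 in SM and 127, 118 and 69.9 in C (LFC = -2.36 ± 0.22 SE, *P*-adj = 5.34e-04). Of 5 myogenic regulators tested, 4 were lower (median LFC -0.59), and 1 was called. *myog*, a transcription factor of differentiating muscle cells, had 621, 654 and 694 normalized counts in TS and 438, 468 and 421 in TS + SM, against 1293, 979.6 and 751 in SM and 1521, 1097 and 1107 in C and fell (LFC = -1.05 ± 0.14 SE, *P*-adj = 0.00474), a call that held in all 12 omissions of 1 library and was lost on the unstranded counts (*P*-adj = 0.145). *myod1* did not pass (LFC = -0.14 ± 0.18 SE, *P*-adj = 0.961). In embryos kept for phenotyping, the study found heated embryos at a later developmental stage than controls at the same age. It states that effects of heat stress and of heat-accelerated development cannot yet be told apart, and it calls for stage-matched controls. No stage-matched pools are among the libraries, so heat and stage cannot be separated here. The part of developmental stage in the sarcomere results was not tested.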

How the data were processed

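Per the labels and the methods of the study, stranded mRNA libraries were trimmed with fastp 0.23.1 without removing duplicates and aligned to GRCz11 with STAR 2.6.1, which counted reads per gene. The authors deposited counts, not normalized, in unstranded and 2 stranded columns, and the second stranded column was used. Reads mapped to several places are in no gene count. They were 4.51% to 10.4% of the sum of the unstranded column, which includes the reads assigned to no gene. Symbols came from a name table and gene order from RefSeq (GRCz12tu), a different build, so no coordinates are given.

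Counts were tested in R 4.3.3 with edgeR 4.0.16 (filterByExpr, TMM, robust quasi-likelihood test, treatment as 1 factor, all 12 libraries) in 7 contrasts. Alternatives were DESeq2 1.42.0, its size factors, no filter, the unstranded column, only the libraries compared, a replicate block, omission of each library and, added after seeing the data, omission of the libraries numbered 3.

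The members and lists were chosen with earlier results of these data known. Values per library were given for called members, the highest and lowest LFC in each role, the slow-fibre members and further members chosen after their values were seen. Protein sequences were not compared. *P*-values measure the spread between pools. TS replicates 1 and 2 were more alike than any other pair within a treatment. Their counts differed by a chi-square per degree of freedom of 4.82, against 20.6 to 172 in the other pairs. Whether they are independent pools was not tested. The correlations between same-numbered pools all exceeded 0.1 in TS and C (r from 0.294 to 0.786 across genes) and in TS + SM and C (0.106 to 0.619). In each other pair of treatments at least 1 of the 3 correlations was below 0.1, and in TS and TS + SM they were 0.478, 0.0608 and 0.556. Depth limits mainly rows under about 100 counts.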

Additional observations from a re-analysis of the deposited data

How the results depend on the processing

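Over 48 values for single genes and 18 or 19 alternatives each, 802 of 875 alternative values kept direction and side of the threshold, 47 lost a call, 18 gained one and 8 changed sign. Members called for heat averaged over both media numbered 1, and 0 to 2 when 1 library was left out, 9 with DESeq2 and 3 without the libraries numbered 3. With 1 library left out, 72 to 172 genes were called over all genes tested. DESeq2 also called 1 member in TS vs. C, 2 in TS + SM vs. SM and 1 in TS + SM vs. C, where edgeR called 0, and over all genes it called 449 for heat averaged over both media, where edgeR called 159. Without the libraries numbered 3, edgeR called 361 genes there. The slow-fibre median ranged from -0.14 to 0.19 in TS vs. C when 1 library was left out, and was 0.16 in TS + SM vs. SM without the libraries numbered 3. The cause of these shifts was not tested. The LFC of *tmod1* became negative without TS replicate 3 (-0.80), TS + SM replicate 3 (-0.15) or SM replicate 3 (-0.026), and without the libraries numbered 3 (-1.10). That omission also turned *actn2b* (-0.0096) and *ldb3a* (-0.14), and omitting TS + SM replicate 1 turned *smyhc1* in TS + SM vs. SM (-0.13). Over all 12 omissions the LFC ranged from -0.80 to 0.36 for *tmod1* and from -0.13 to 0.31 for that of *smyhc1*. With the replicate number as a block, 1 member was called for heat averaged over both media (*myhz2*, *P*-adj = 0.0162) and 0 in each other comparison, the fast-fibre median was 0.70, and the LFC of *tmod1* was -0.15; the block changed no call of a member. The size factors of DESeq2 moved the median of all genes by less than 0.1 on the log2 scale. The spread between 3 pools, and for rows under about 100 counts also the depth, limits every comparison.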
